A study of Arabidopsis thaliana with 11 samples.

Results

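The genes described here encode proteins of the large subunit of the cytosolic ribosome of Arabidopsis thaliana. They are 59 genes of 23 protein families, numbered L3 to L24 in the eukaryotic scheme, and were chosen by gene identifier. All introns listed for these genes were taken, which gave 205 introns of the 121244 introns of 22121 genes in all. Splicing on chromatin was followed in 10-day-old seedlings of the wild-type accession Col-0, with no treatment other than the way the RNA was fractionated. CB-RNA was chromatin-bound RNA from which rRNA had been removed and in which polyadenylated RNA was kept (2 libraries). RNAf was the polyadenylated part of the chromatin-bound RNA, taken as full-length transcripts not yet released (2 libraries). RNAe was chromatin-bound RNA depleted of both polyadenylated RNA and rRNA, taken as elongating transcripts (2 libraries). RNAe + RNAf was a second preparation with the same rRNA-removed treatment as CB-RNA (2 libraries), and mRNA was the mature polyadenylated RNA of seedlings (3 libraries). Whole seedlings were used, so every value averages over tissues and cell types, and fewer cells that use a gene cannot be told apart from less RNA per cell.

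The ribosome is built from rRNA and a set of proteins, most of which plants encode in several expressed gene copies. The large subunit joins amino acids into protein, and its genes rank among the most highly transcribed protein-coding genes of growing tissue. Their pre-mRNAs carry introns that the spliceosome removes, much of it while RNA polymerase II is still on the gene or before the transcript leaves chromatin. At each end of an intron, the splicing (SS) ratio sets intronic reads against exonic reads beside the 5ʹ splice site (5ʹSS) or the 3ʹ splice site (3ʹSS), so a higher ratio means that more of the RNA still held the intron. The reads of the libraries of a group were pooled, so there is no spread between replicates. Intervals of ratios and shares are 95% Wilson intervals, turned into a ratio where a ratio is given, and cover counting error only. The limits for medians in the closing section are of another kind, described there.

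The splice sites of the introns on which the results turn are printed here, 5ʹ to 3ʹ on the coding strand, from the RefSeq copy of TAIR10. Each 5ʹSS window holds 3 exon bases and 10 intron bases with the first 6 intron bases in capitals, and each 3ʹSS window holds 20 intron bases and 3 exon bases with the last 3 intron bases in capitals. The first 6 lines are the 3 pairs of paralogous introns that differed most in RNAe.
RPL3B intron 5, 5ʹSS: cagGTAATAatac
RP1 intron 5, 5ʹSS: cagGTCAGTagaa
AT3G07110 intron 1, 5ʹSS: cggGTTCGTtact
AT3G24830 intron 1, 5ʹSS: tggGTTCGTattc
AT5G27850 intron 3, 5ʹSS: aagGTTCGAtctt
RPL18 intron 3, 5ʹSS: aagGTACTAattc

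The next 3 lines are the introns of the L10a genes that begin with GC in place of the usual GT. The last 4 lines are both ends of the L15 intron with the largest RNAf ratios and of an L10a intron whose ends differed.
AT1G08360 intron 4, 5ʹSS: cagGCAAGTtctg
PGY1 intron 4, 5ʹSS: cagGCGAGTttct
AT5G22440 intron 4, 5ʹSS: cagGCATGTctct
AT4G16720 intron 2, 5ʹSS: cagGTGACTcttt
AT4G16720 intron 2, 3ʹSS: gagatgttgatgtatgtCAGggc
AT1G08360 intron 2, 5ʹSS: gagGTACTTgacg
AT1G08360 intron 2, 3ʹSS: ttctttgtgggttaataCAGtaa

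Reads were counted for 56 of the 59 genes in CB-RNA and for 57 in each of the other groups. AT3G51190 of the L8 family, which lies in the RNA core of the subunit, and AT3G48960 of the L13 family had no counted reads in any group. AT4G10450 (L9) was not counted in CB-RNA. Exonic reads beside the 5ʹSS of all introns of the series summed to between 5460195 in RNAe + RNAf and 116244073 in mRNA. The median large-subunit intron had 126 exonic reads beside its 5ʹSS in CB-RNA, 900 in RNAf, 80 in RNAe, 88 in RNAe + RNAf and 6767 in mRNA. Single introns were therefore measured least precisely in RNAe and RNAe + RNAf, where 17 and 10 introns had fewer than 10 exonic reads. As a check of the tissue, RBCS1A, RCA and LHCB5 of green tissue were at the 100th percentile of exonic reads in mRNA, while the root genes PHO1 and EIR1 were at percentiles 90.0 and 40.7 and LHB1B2 and NRT2:1 were not counted. Reads that aligned to more than one place had been discarded. How far this touched each gene was not measured, and protein identity was used as a rough guide. In 5 families (L6, L9, L11, L15 and L23), 13 genes have proteins at least 98% identical to another member. The values of these genes are taken as uncertain for that reason, and other paralogues may be touched too.

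Large-subunit introns were mostly removed in polyadenylated RNA on chromatin and almost entirely removed in mRNA. The median 5ʹSS ratio of the member introns was 0.23 in CB-RNA, 0.0348 in RNAf, 0.201 in RNAe, 0.164 in RNAe + RNAf and 0.0018 in mRNA. The corresponding medians over all introns were 0.284, 0.0455, 0.308, 0.258 and 0.0064 in the same order of groups, so the members lay below the series in every group. At the 3ʹSS the member medians were 0.29 in CB-RNA, 0.0474 in RNAf, 0.235 in RNAe, 0.2 in RNAe + RNAf and 0.0023 in mRNA, beside 0.307, 0.0583, 0.333, 0.286 and 0.0075 over all introns. The relative distance from the series was widest in mRNA. Small-subunit ribosomal protein genes, a list of 86 genes with 268 introns, had 5ʹSS medians of 0.239, 0.031, 0.2, 0.192 and 0.0016. The other large-subunit genes, 55 genes with 149 introns, had 0.3, 0.0447, 0.27, 0.23 and 0.00225. The members' medians in RNAf and mRNA lay between those of the other ribosomal protein lists.

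**Figure D1:**
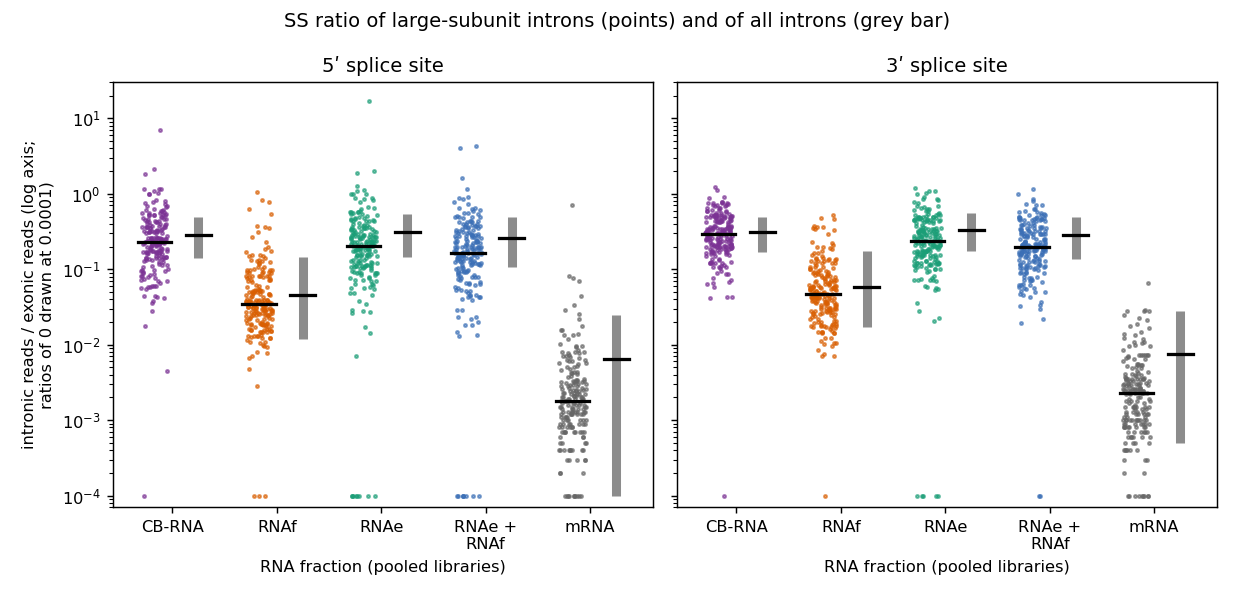
The SS ratio of each large-subunit intron is drawn as a point on a log axis for the 5 RNA fractions, at the 5ʹ splice site (left) and the 3ʹ splice site (right), with ratios of 0 drawn at 0.0001. Black lines are medians and grey bars span the middle 50% of all introns; the member medians at the 5ʹ splice site run from 0.0018 in mRNA to 0.23 in CB-RNA.

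Summing reads weights the well-read introns and gave the same order of groups. The summed 5ʹSS ratio of the members was 0.232 in CB-RNA (0.226 to 0.238), 0.0478 in RNAf (0.0469 to 0.0487), 0.194 in RNAe (0.188 to 0.201), 0.17 in RNAe + RNAf (0.164 to 0.176) and 0.00262 in mRNA (0.00254 to 0.0027). Over all introns the summed ratios were 0.312, 0.12, 0.336, 0.305 and 0.0218. The 3ʹSS ratio was the higher of the pair at 123 of 198 member introns in CB-RNA, 138 of 201 in RNAf, 117 of 199 in RNAe, 120 of 199 in RNAe + RNAf and 104 of 201 in mRNA. These are shares of 62.1%, 68.7%, 58.8%, 60.3% and 51.7%, beside 54.4%, 58.2%, 53.8%, 52.1% and 45.5% over all introns. The members were also lower among well-read introns. Among introns with at least 2000 exonic 5ʹSS reads in mRNA, a limit chosen after the values were seen, 179 member introns had medians of 0.22, 0.0317, 0.186, 0.157 and 0.0016, against 0.264, 0.0439, 0.282, 0.238 and 0.0038 for all 10298 such introns.

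The first comparison asked how far introns still present in polyadenylated chromatin RNA were gone from mature mRNA. Nearly every large-subunit intron had a higher ratio in RNAf than in mRNA. At the 5ʹSS, 196 of 201 member introns were called higher in RNAf and 0 lower, where 58.0% of all tested introns were called higher and 0.470% lower. At the 3ʹSS, 200 of 201 were called higher and 0 lower, beside backgrounds of 63.7% and 0.409%. All 57 genes had at least 1 intron called higher at each site, as did 14503 of all 15463 genes tested at the 5ʹSS and 14773 of 15488 at the 3ʹSS. The call is Fisher's exact test (two-sided) on intronic and exonic reads of each intron, adjusted by Benjamini-Hochberg over all introns in which each group had 10 or more exonic reads, at an adjusted p of 0.05. It compares the pooled libraries. At an unadjusted p of 0.05, the count of members lower in RNAf was also 0 at both sites. The RNAf median was 19.3 times the mRNA median at the 5ʹSS and 20.6 times at the 3ʹSS, against 7.0 and 7.61 times over all introns. At the 5ʹSS it was 19.4 times for small-subunit genes and 19.9 times for the other large-subunit genes.

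Because large-subunit introns carry many reads, a call is easier for them. Among introns with 500 or more exonic reads in RNAf and 2000 or more in mRNA, limits chosen after the values were seen, 151 of 152 member introns (99.3%) and 6988 of all 7626 introns (91.6%) were called higher at the 5ʹSS. The RNAf median of these was 19.6 times the mRNA median for members and 10.1 times for all introns. At the 3ʹSS the shares were 169 of 169 members and 94.0% of all introns. For other ribosomal protein genes, 238 of 251 small-subunit introns and 134 of 142 introns of the remaining large-subunit genes were called higher at the 5ʹSS. No difference between these shares was tested.

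The 5 introns not called higher at the 5ʹSS are named here after their values were seen. Intron 1 of AT1G33120 and intron 1 of PGY2, near-identical L9 genes, had no intronic reads in either fraction. AT1G33120 had 516 exonic reads in RNAf and 2959 in mRNA, which allow ratios of up to 0.00581 and 0.00101. PGY2, a gene known for its part in leaf patterning, had 389 exonic reads in RNAf and 1610 in mRNA, which allow ratios of up to 0.00771 and 0.00186. Intron 4 of RPL16A, an L11 gene, had 0 intronic beside 275 exonic reads in RNAf and 1 beside 1062 in mRNA. The RNAf minus mRNA differences of these 3 introns at the 5ʹSS were also the smallest among the well-read introns. At the 3ʹSS only RPL16A intron 4 was again not called, while AT1G33120 had 7 intronic and 816 exonic reads in RNAf against 5 and 4131 in mRNA (Fisher's exact test, Benjamini-Hochberg adjusted p = 0.00246) and PGY2 had 8 and 761 in RNAf against 7 and 3177 in mRNA (Fisher's exact test, Benjamini-Hochberg adjusted p = 0.00642). The L13 gene BBC1, by contrast, had intronic reads in both fractions at intron 1, which lies in its 5ʹ untranslated region. Its 5ʹSS counts were 77 intronic and 74 exonic reads in RNAf and 31 and 43 in mRNA (Fisher's exact test, Benjamini-Hochberg adjusted p = 0.287). The ratios were 1.0405 and 0.721. At its 3ʹSS, BBC1 stood at 0.212 in RNAf against 0.0121 in mRNA. Exonic reads of this intron in mRNA numbered 43 beside the 5ʹSS and 6596 beside the 3ʹSS, so the 0.721 rests on few reads. Intron 1 of AT4G13170 (L13a) had 5 intronic beside 193 exonic reads in RNAf and 40 beside 2879 in mRNA (Fisher's exact test, Benjamini-Hochberg adjusted p = 0.286).

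Among introns with at least 50 exonic reads in both fractions, the largest 5ʹSS differences of RNAf minus mRNA were in the L10a, L11, L15 and L18 families. Some introns with fewer reads differed as much or more, such as RPL3B intron 1 (L3). Its ratio was 0.815 in RNAf, on 27 exonic reads, against 0.0338 in mRNA. L10a is the protein of the mobile stalk through which spent tRNA leaves, and L11 binds 5S rRNA together with L5. Intron 1 of the L18 gene AT5G27850 (chr5:9873172-9873337, plus strand, between coding exons) reached 0.544 in RNAf (92 intronic, 169 exonic reads) against 0.0289 in mRNA (40 and 1382) (Fisher's exact test, Benjamini-Hochberg adjusted p = 1.97e-48). Intron 2 of the L15 gene AT4G16720 (chr4:9400686-9400998, minus strand, coding) reached 0.373 in RNAf (837 intronic, 2246 exonic reads) against 0.0218 in mRNA (323 and 14828). Intron 4 of the L10a gene AT5G22440 (chr5:7435674-7435767, minus strand, coding) stood at 0.356 in RNAf against 0.0442 in mRNA (Fisher's exact test, Benjamini-Hochberg adjusted p = 4.11e-91). Intron 3 of the L11 gene RPL16B (chr4:10302628-10302722, plus strand, coding) had 0.314 in RNAf against 0.0094 in mRNA. Intron 1 of AT5G22440, in the 5ʹ untranslated region, had 0.362 in RNAf against 0.07 in mRNA. These 5 introns were still partly unspliced after polyadenylation and largely spliced in mRNA.

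A second comparison set polyadenylated against elongating RNA on chromatin. Most large-subunit introns had a lower ratio in RNAf than in RNAe. At the 5ʹSS, 136 of 184 member introns were called lower in RNAf and 3 higher, beside backgrounds of 68.1% and 0.848% of all tested introns. At the 3ʹSS, 158 of 196 were called lower and 3 higher, beside 69.5% and 0.427%. The RNAf median was 0.172 times the RNAe median at the 5ʹSS and 0.202 times at the 3ʹSS, against 0.145 and 0.171 times over all introns. The share called lower was near the background at the 5ʹSS, and neither share was tested against it. This comparison and the first share the RNAf libraries.

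The exceptions, higher in RNAf than in RNAe, fell on 3 genes. At AT4G16720 intron 2 (L15), the 5ʹSS ratio was 0.364 in CB-RNA, 0.373 in RNAf, 0.274 in RNAe, 0.373 in RNAe + RNAf and 0.0218 in mRNA, and the RNAf value exceeded that of RNAe (Fisher's exact test, Benjamini-Hochberg adjusted p = 0.0396). At its 3ʹSS the ratios were 0.555, 0.523, 0.315, 0.462 and 0.0277 in the same order, with an adjusted p of 0.000303 for RNAf against RNAe in the same test. RNAf thus stood at the level of CB-RNA and RNAe + RNAf at this intron, unlike at the 2 other introns of the gene, whose 5ʹSS ratios in RNAf were 0.0359 and 0.0391. Intron 1 of AT1G08360 (L10a), in the 5ʹ untranslated region, had 34 intronic and 44 exonic 5ʹSS reads in RNAf and 11 and 38 in RNAe (Fisher's exact test, Benjamini-Hochberg adjusted p = 0.0327). Its 3ʹSS ratio was 0.458 in RNAf and 0.278 in RNAe (Fisher's exact test, Benjamini-Hochberg adjusted p = 0.00182). The third was AT5G22440 intron 4 at the 3ʹSS, with 273 intronic and 752 exonic reads in RNAf and 6 and 55 in RNAe (Fisher's exact test, Benjamini-Hochberg adjusted p = 0.00412).

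AT1G08360 intron 2 (chr1:2636236-2636647, plus strand, coding, 412 bp) was called in opposite directions at its ends. Its 5ʹSS had 21 intronic and 643 exonic reads in RNAf, a ratio of 0.0327, but 0 and 295 in RNAe, which allow a ratio of up to 0.0102 (Fisher's exact test, Benjamini-Hochberg adjusted p = 0.00105). Its 3ʹSS stood at 0.0573 in RNAf against 0.159 in RNAe, with 159 intronic and 1001 exonic reads in RNAe (Fisher's exact test, Benjamini-Hochberg adjusted p = 2.8e-09). The same gap between the ends was seen in CB-RNA, with 0.0179 at the 5ʹSS and 0.185 at the 3ʹSS. Exonic reads in CB-RNA numbered 390 beside the 5ʹSS and 1171 beside the 3ʹSS, so the exon that follows was read more than the exon that precedes. In mRNA the numbers were 6474 and 8413.

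The third comparison asked what removing polyadenylated RNA did to chromatin-bound RNA. The ratio was somewhat higher in RNAe than in RNAe + RNAf for many large-subunit introns, but almost no single intron was called. At the 5ʹSS, 131 of 198 member introns (66.2%) were higher in RNAe, against 56.8% of all introns, and the RNAe median was 1.23 times the RNAe + RNAf median, against 1.19 times over all introns. Fisher's exact test with Benjamini-Hochberg adjustment called 0 of 182 members higher and 1 lower, beside backgrounds of 0.853% and 0.337%. At an unadjusted p of 0.05 it gave 21 higher and 10 lower. The 1 lower was intron 2 of the L14 gene AT4G27090 (chr4:13594566-13594857, minus strand, coding), with 1 intronic and 140 exonic reads in RNAe and 21 and 170 in RNAe + RNAf (Fisher's exact test, Benjamini-Hochberg adjusted p = 0.0168). CB-RNA also kept polyadenylated RNA, yet its member median at the 5ʹSS was above that of RNAe, 0.23 against 0.201. Over all introns it was below, 0.284 against 0.308. It was above for small-subunit genes, 0.239 against 0.2, and for the other large-subunit genes, 0.3 against 0.27. The CB-RNA gene ratio was above that of RNAe in 36 of 56 members. The direction for members thus differed between the preparations that kept polyadenylated RNA, which was not tested.

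At the 3ʹSS, 6 of 194 member introns were called higher in RNAe and 1 lower, beside backgrounds of 0.711% and 0.275%. The 7 are named after their values were seen. Intron 3 of AT4G17390 (L15) had 42 intronic and 69 exonic reads in RNAe and 8 and 71 in RNAe + RNAf (Fisher's exact test, Benjamini-Hochberg adjusted p = 0.00586). The other 5 higher introns were AT1G33120 intron 2 (L9), AT1G74060 intron 1 (L6), AT4G27090 intron 4 (L14), AT5G02870 intron 1 (L4) and AT5G45775 intron 3 (L11), with adjusted p between 0.0244 and 0.0425 in the same test. Of these 6 introns, 4 belong to genes with a near-identical copy. AT2G01250 intron 3 (L7) was lower, with 0 intronic and 79 exonic reads in RNAe and 23 and 105 in RNAe + RNAf (Fisher's exact test, Benjamini-Hochberg adjusted p = 0.00586).

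The fourth comparison set the whole of the chromatin-bound RNA against mRNA, and nearly all large-subunit introns had a higher ratio in CB-RNA. At the 5ʹSS, 188 of 191 member introns were called higher in CB-RNA and 0 lower, beside backgrounds of 91.2% and 0.185%. At the 3ʹSS, 197 of 198 were called higher and 0 lower, beside 92.9% and 0.127%. At an unadjusted p of 0.05 the same test also gave 0 lower at either site. The CB-RNA median was 131 times the mRNA median at the 5ʹSS and 126 times at the 3ʹSS, against 44.0 and 41.2 times over all introns. Other ribosomal protein genes had like values, 148 and 152 times for the small subunit and 133 and 132 times for the other large-subunit genes. Not called at the 5ʹSS were BBC1 intron 1, AT3G58700 intron 2 (L11) and RPL5B intron 1 (L5). For RPL5B, 3 intronic and 670 exonic reads were counted in CB-RNA, against 20 and 3931 in mRNA (Fisher's exact test, Benjamini-Hochberg adjusted p = 1.0). At the 3ʹSS of that intron it had 84 and 805 in CB-RNA against 8 and 6221 in mRNA.

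CB-RNA and RNAe + RNAf carried the same rRNA-removed treatment and were set side by side for the large-subunit introns. The CB-RNA median was 1.4 times that of RNAe + RNAf at the 5ʹSS and 1.44 times at the 3ʹSS, against 1.09 and 1.07 times over all introns. At the 5ʹSS it was 1.28 times for small-subunit genes and 1.31 times for the other large-subunit genes. CB-RNA was higher at 135 of 197 member introns (68.5%) at the 5ʹSS, against 53.4% of all introns. These values are given without a test.

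The genes differed widely in how much intron their chromatin RNA held. Summed over both sites of all introns, the gene ratio ran between 0.0982 and 0.849 in CB-RNA, 0.0199 and 0.212 in RNAf, 0.0457 and 0.8 in RNAe, 0.0211 and 0.83 in RNAe + RNAf and 0.000945 and 0.0168 in mRNA. Its medians over members were 0.273, 0.051, 0.243, 0.211 and 0.0025, against 0.383, 0.138, 0.416, 0.363 and 0.0215 over all genes. All 57 members were below the all-gene median in mRNA, and 50 of 57 in RNAf. The mRNA ratio was the lowest of the groups in which a gene was counted in 57 of 57 genes. This count was not taken over all genes, but mRNA was also lowest and RNAf next lowest among the all-gene medians above. Among the chromatin groups in which a gene was counted, the RNAf ratio was the lowest in 56 of 57 members. The exception was the L4 gene AT5G02870 with 0.0402 in RNAf and 0.0211 in RNAe + RNAf.

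**Figure D2:**
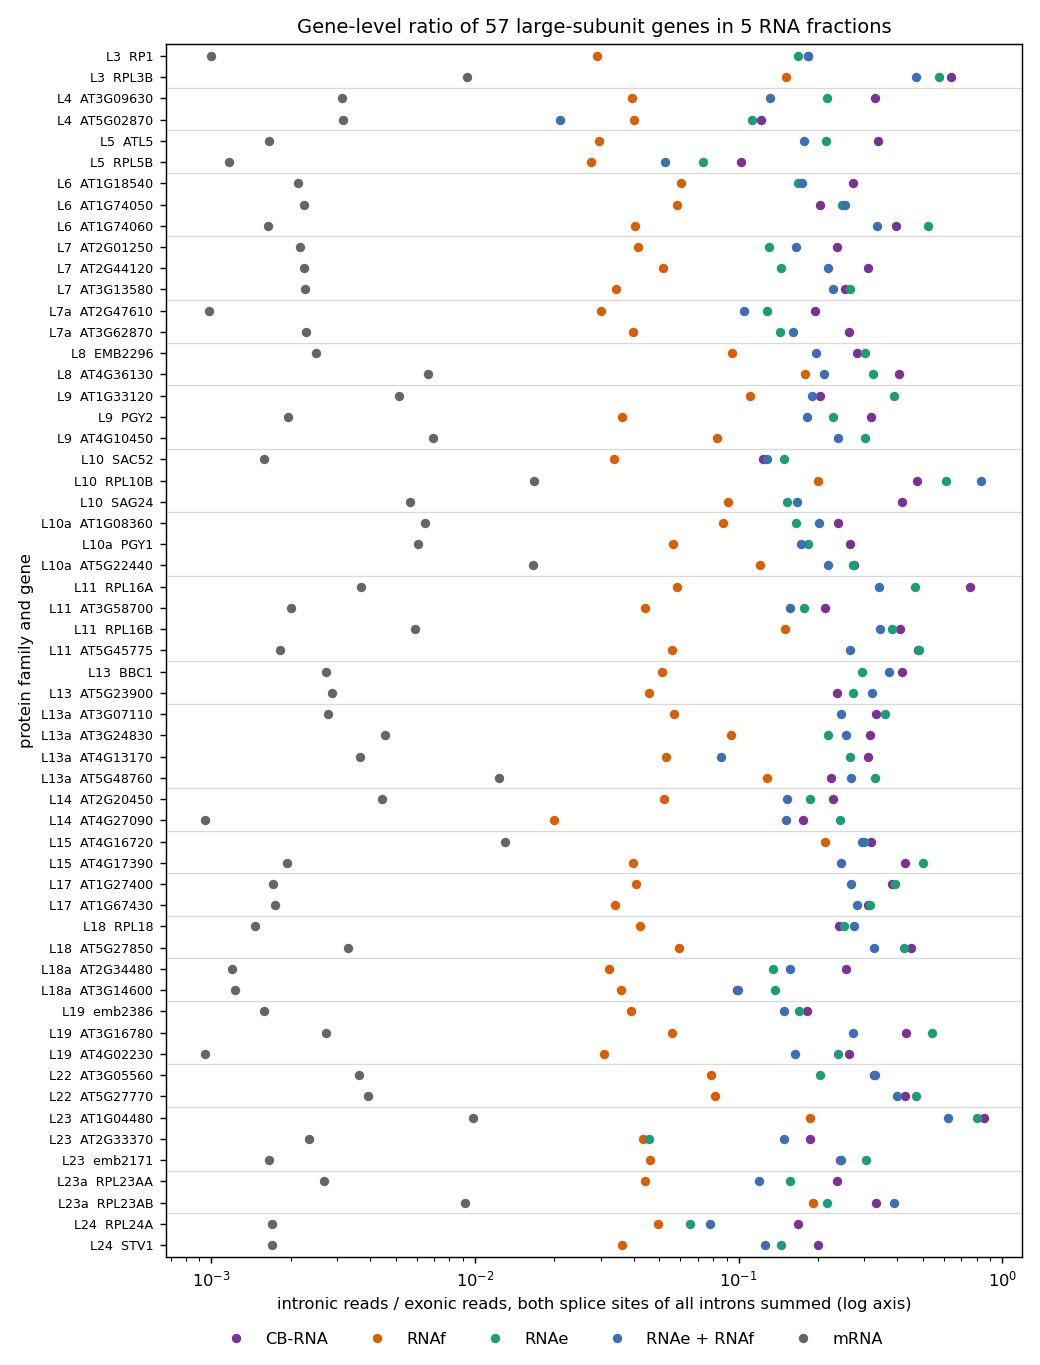
Each row is 1 of 57 large-subunit genes, grouped by protein family, and each point is its gene ratio in 1 RNA fraction, intronic over exonic reads with both splice sites of all introns summed, on a log axis. mRNA lies leftmost in every row, RNAf lies left of the other chromatin fractions in 56 of 57 rows, and AT1G04480 of the L23 family and RPL3B lie farther right than their paralogues.

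L3 and L4 reach toward the site of peptide bond formation, and L4 lines the exit tunnel. The 2 L3 genes differed throughout. RPL3B had a gene ratio of 0.637 in CB-RNA (0.571 to 0.71), 0.151 in RNAf (0.134 to 0.17), 0.574 in RNAe (0.492 to 0.67), 0.47 in RNAe + RNAf (0.404 to 0.546) and 0.00932 in mRNA (0.00744 to 0.0117). RP1 had 0.183, 0.0289, 0.168, 0.184 and 0.001, with upper bounds of 0.201, 0.0317, 0.19, 0.209 and 0.00117, so the intervals of the 2 genes did not overlap in any group. RPL3B was also among the genes with the fewest reads, 3863 exonic 5ʹSS reads in mRNA, whereas RP1 had 75388. The L4 gene AT5G02870, whose sole intron was read in all groups, had 0.122 in CB-RNA, 0.0402 in RNAf, 0.112 in RNAe, 0.0211 in RNAe + RNAf and 0.00316 in mRNA.

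L5 carries 5S rRNA into the subunit. ATL5 had a gene ratio of 0.338 in CB-RNA (0.316 to 0.361), 0.0296 in RNAf, 0.215 in RNAe, 0.177 in RNAe + RNAf and 0.00165 in mRNA. RPL5B had 0.102 in CB-RNA (0.0933 to 0.112), 0.0276 in RNAf, 0.0735 in RNAe, 0.0527 in RNAe + RNAf and 0.00117 in mRNA. The paralogues lay apart in CB-RNA, RNAe and RNAe + RNAf and close together in RNAf. Of the L11 genes, RPL16A had 0.754 in CB-RNA, 0.0585 in RNAf, 0.465 in RNAe, 0.341 in RNAe + RNAf and 0.00368 in mRNA, and it was among the least read members with 3870 exonic 5ʹSS reads in mRNA.

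The L10 protein joins the subunit late in its assembly. Its gene RPL10B had the fewest exonic 5ʹSS reads of the counted members in mRNA, 969, and a gene ratio of 0.474 in CB-RNA, 0.2 in RNAf, 0.61 in RNAe, 0.83 in RNAe + RNAf and 0.0168 in mRNA. The 0.83 (0.544 to 1.26) and 0.0168 (0.0121 to 0.0232) were the highest of any member in RNAe + RNAf and mRNA, but not clearly so. The 0.83 rests on 23 exonic reads at the 5ʹSS and 24 at the 3ʹSS. Its interval overlaps that of AT1G04480, at 0.621 (0.494 to 0.781). In mRNA, AT5G22440 stood at 0.0166 (0.0151 to 0.0182). The most read genes in mRNA were emb2386 (L19) with 105260 exonic 5ʹSS reads, AT4G27090 (L14) with 83651, RP1 (L3) with 75388, AT2G01250 (L7) with 74230 and AT1G67430 (L17) with 73080. AT4G27090 had 0.176 in CB-RNA, 0.0199 in RNAf (0.0183 to 0.0217), 0.243 in RNAe, 0.151 in RNAe + RNAf and 0.000946 in mRNA, and its RNAf ratio was the lowest of any member. Emb2386, a gene known to be needed for the embryo, had 0.181, 0.0391, 0.169, 0.148 and 0.00158.

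The L23 protein lies where the ribosomal subunits meet. Its gene AT1G04480 had the highest CB-RNA and RNAe ratios of any member, 0.849 in CB-RNA (0.726 to 0.992), 0.187 in RNAf (0.171 to 0.205), 0.8 in RNAe (0.627 to 1.02), 0.621 in RNAe + RNAf (0.494 to 0.781) and 0.0098 in mRNA (0.00861 to 0.0112). The 0.849 and 0.8 were not clearly the highest. Intervals of RPL16A in CB-RNA (0.576 to 0.988) and RPL10B in RNAe (0.404 to 0.921) overlap them. Intron 2 of AT1G04480 holds small nucleolar RNA (snoRNA) genes, whose reads cannot be told apart from those of the pre-mRNA. Its paralogue emb2171 had 0.243, 0.046, 0.303, 0.245 and 0.00165, and AT2G33370 had 0.187, 0.0433, 0.0457, 0.148 and 0.00235. The 3 proteins are near-identical, and the discarding of reads that align to several places may touch these values, which was not measured. L23a lies at the mouth of the tunnel. RPL23AB had 0.331 in CB-RNA, 0.192 in RNAf, 0.216 in RNAe, 0.39 in RNAe + RNAf and 0.00913 in mRNA, and RPL23AA had 0.237, 0.0441, 0.157, 0.119 and 0.00268.

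The highest RNAe ratios of single introns, among those with at least 50 exonic reads, were in L3, L6, L13a, L17, L18, L19 and L23 genes. RPL3B intron 5 (chr1:22721095-22721191, minus strand, coding) had 45 intronic and 51 exonic 5ʹSS reads in RNAe, a ratio of 0.882. AT1G04480 intron 2 (chr1:1216529-1217132, plus strand, coding) had 62 and 76, a ratio of 0.816, which may include reads of the snoRNA genes inside it. AT3G07110 intron 1 (L13a, chr3:2252364-2252624, plus strand, coding) had 48 and 62, a ratio of 0.774. AT5G27850 intron 3 (L18, chr5:9873650-9873870, plus strand, coding) had 103 and 156, a ratio of 0.66. The next 4 were AT1G67430 intron 6 (L17) with 0.649, AT1G74060 intron 2 (L6) with 0.587 and intron 3 with 0.578, and AT4G02230 intron 2 (L19) with 0.573. In mRNA these 8 introns had ratios between 0.001 and 0.0078, so all were spliced there.

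The lowest RNAe ratios were those of AT1G08360 intron 2 (L10a) at 0, AT4G27090 intron 2 (L14) at 0.0071, AT3G13580 intron 6 (L7) at 0.0145, RPL24A intron 2 (L24) at 0.0169 and RPL5B intron 2 (L5) at 0.026. RPL5B intron 2 had 17 intronic and 653 exonic reads in RNAe and RPL24A intron 2 had 4 and 237. At the 3ʹSS of the same introns the RNAe ratio was higher, at 0.159 for AT1G08360 intron 2, 0.229 for AT4G27090 intron 2 and 0.279 for AT3G13580 intron 6. RPL5B intron 2 and RPL24A intron 2 were low at both ends, with 3ʹSS ratios of 0.0281 and 0.0205.

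In mRNA the highest 5ʹSS ratios among introns with at least 50 exonic reads were 0.0814 at PGY1 intron 1 (147 intronic and 1806 exonic reads), 0.0764 at RPL10B intron 1, 0.07 at AT5G22440 intron 1, 0.0442 at AT5G22440 intron 4 and 0.0338 at RPL3B intron 1. PGY1 encodes an L10a protein and is known from leaf patterning. At the 3ʹSS the highest were AT5G22440 intron 1 with 0.066, RPL3B intron 1 with 0.0288, AT5G22440 intron 4 with 0.0283, AT4G16720 intron 2 with 0.0277 and RPL10B intron 1 with 0.0276. The first introns of PGY1, AT5G22440 and RPL3B lie in 5ʹ untranslated regions. The 12 member introns in 5ʹ untranslated regions had median 5ʹSS ratios of 0.334 in CB-RNA, 0.143 in RNAf, 0.354 in RNAe, 0.3 in RNAe + RNAf and 0.0169 in mRNA, against 0.224, 0.033, 0.199, 0.158 and 0.0017 for the 193 introns between coding exons. All 5ʹ untranslated introns of the series had medians of 0.387, 0.108, 0.375, 0.333 and 0.0164.

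Paralogous introns often differed in ratio. Introns were paired by order in families whose genes have the same number of introns, which gave 128 pairs. In RNAe, 56 pairs reached 50 exonic 5ʹSS reads in each gene, and at 30 of these the ratios differed at least 2-fold. The numbers were 33 of 73 pairs in CB-RNA, 64 of 125 in RNAf, 35 of 65 in RNAe + RNAf and 83 of 125 in mRNA. A ratio of 0 occurred in 6 of these pairs in RNAf, 2 in RNAe + RNAf and 14 in mRNA. Pairs of unrelated introns were not counted, so these numbers have no background. Counting error of low intronic counts also enters them. The median difference between paired introns, regardless of sign, was 0.163 in CB-RNA, 0.0271 in RNAf, 0.136 in RNAe, 0.0877 in RNAe + RNAf and 0.0018 in mRNA. Across pairs, Spearman's rho of the 2 paralogues' ratios was -0.0806, 0.178, 0.181, 0.115 and 0.177 in that order, given as a description since pairs of one family share genes.

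The 3 families with the largest RNAe differences were L3, L18 and L13a, whose splice sites are printed at the start. At intron 5, RPL3B had 0.544 in CB-RNA, 0.126 in RNAf, 0.882 in RNAe (0.593 to 1.31), 0.44 in RNAe + RNAf and 0.0066 in mRNA. The same intron of RP1 (chr1:16268269-16268372, plus strand) had 0.209, 0.0308, 0.214 (0.143 to 0.321), 0.2 and 0.0013. The proteins are 86.15% identical. At intron 1, AT3G07110 had 0.592 in CB-RNA, 0.0505 in RNAf, 0.774 in RNAe (0.532 to 1.13), 0.733 in RNAe + RNAf and 0.0037 in mRNA. AT3G24830 (chr3:9064885-9065164, plus strand) had 0.234, 0.0262, 0.223 (0.145 to 0.343), 0.156 and 0.0018, although the 6 intron bases in capitals are the same in both genes. At intron 3, AT5G27850 had 0.796 in CB-RNA, 0.0519 in RNAf, 0.66 in RNAe (0.515 to 0.846), 0.64 in RNAe + RNAf and 0.0025 in mRNA. RPL18 (chr3:1622123-1622343, plus strand) had 0.0976, 0.0277, 0.113 (0.0642 to 0.199), 0.0833 and 0.0004, in an intron of the same length, 221 bp. In each pair the gene with the higher RNAe ratio was also higher in the other 4 fractions. These pairs were picked for their RNAe difference, which is therefore a description.

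**Figure D3:**
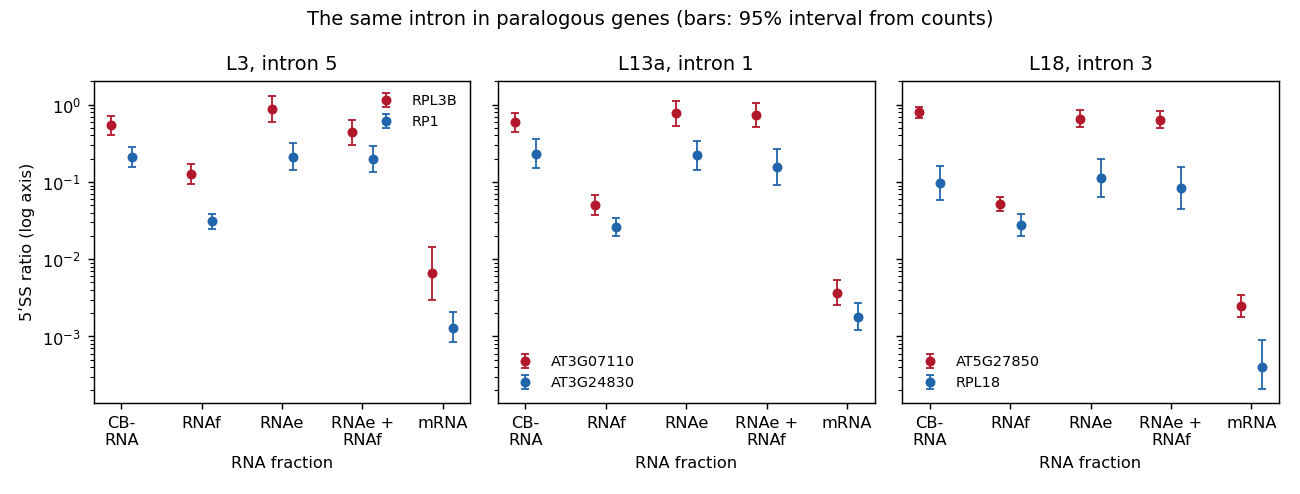
The 5ʹSS ratio of the same intron in 2 paralogous genes is drawn on a log axis for the L3, L13a and L18 families in 5 RNA fractions, with 95% intervals from read counts. The genes drawn in red (RPL3B, AT3G07110 and AT5G27850) lie above the genes in blue (RP1, AT3G24830 and RPL18) in every fraction, for example with 0.796 and 0.0976 in CB-RNA in L18.

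Introns that begin with GC and end with AG are a known minor class. Of the 205 member introns, 3 (1.46%) were of this class, against 0.963% of all introns. All 3 were intron 4 of an L10a gene, and in each the exon that follows begins with gaa. The 5ʹSS ratio of AT1G08360 intron 4 was 0.316 in CB-RNA, 0.0317 in RNAf, 0.213 in RNAe, 0.176 in RNAe + RNAf and 0.003 in mRNA. PGY1 intron 4 had 0.365, 0.0431, 0.286, 0.127 and 0.0079. AT5G22440 intron 4 had 0.44, 0.356, 0.184, 0.372 and 0.0442. The 3 genes were thus similar in CB-RNA but not in RNAf, where AT5G22440 stood well above the others with 301 intronic and 845 exonic reads. The median of all 1167 introns starting with GC was 0.318, 0.0789, 0.364, 0.325 and 0.0155.

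The annotation places snoRNA genes on the same strand inside 4 member introns, of 32 such introns in the series, a feature looked up after the ratios were seen. SnoRNAs guide the modification of rRNA and are often cut from introns of genes for ribosomal proteins, and their reads cannot be told apart from those of the pre-mRNA. Intron 2 of AT1G04480, 604 bp long, holds 3 (AT1G04267, AT1G04273 and AT1G04277), which begin 23, 193 and 392 bases from its 5ʹSS. Intron 3 of the L17 gene AT1G27400 holds AT1G06087, and its 3ʹSS ratio was 0.696 in CB-RNA, 0.0474 in RNAf, 0.894 in RNAe, 0.708 in RNAe + RNAf and 0.0005 in mRNA. Its 5ʹSS ratio was 0.0948, 0.0244, 0.231, 0.0645 and 0.0004. Intron 3 of its paralogue AT1G67430 holds AT1G08937 and had 3ʹSS ratios of 0.277, 0.031, 0.275, 0.249 and 0.0011. Intron 2 of AT4G17390 holds AT4G06705 and had 0.197, 0.0443, 0.139, 0.151 and 0.0024. Without these 4 introns the member medians at the 5ʹSS were 0.232, 0.035, 0.201, 0.164 and 0.0018.

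Within genes, the ratio was examined by intron order. The median 5ʹSS ratio of first introns was 0.263 in CB-RNA, 0.0505 in RNAf, 0.25 in RNAe, 0.258 in RNAe + RNAf and 0.0023 in mRNA. Internal introns had 0.22, 0.0281, 0.175, 0.14 and 0.0012, and last introns had 0.229, 0.0368, 0.209, 0.176 and 0.002. In genes with at least 3 introns, the last intron was above the first in RNAe in 16 of 45 members and below it in 28, with a median difference of -0.0904. Over all genes the last intron was above the first in 61.5%, with a median of 0.107. In RNAe + RNAf the last was above the first in 13 of 43 members, with a median of -0.119 against 0.0298 over all genes. In CB-RNA the medians were -0.0665 for members and 0.0567 for all genes, but the member median turned to 0.0222 over the 41 genes with at least 10 exonic reads at both introns. The medians of members and of all genes were -0.0007 and 0.0109 in RNAf and 0.0 and 0.0027 in mRNA. The 3ʹSS gave -0.0729 in RNAe, with the last intron above the first in 13 of 45 members, against 0.0994 and 61.1% over all genes. The median last-minus-first difference at the 5ʹSS was thus negative for large-subunit genes and positive for genes at large in RNAe and RNAe + RNAf, and the difference between the sets was not tested.

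Genes with a single intron had lower medians than such genes at large, a difference that was not tested. The sole introns of AT3G09630, AT5G02870, EMB2296 and AT4G36130 (L4 and L8) had a median 5ʹSS ratio of 0.17 in CB-RNA, 0.0436 in RNAf, 0.122 in RNAe, 0.0889 in RNAe + RNAf and 0.00285 in mRNA, while the sole intron of AT3G51190 was not counted. All sole introns of the series had 0.545, 0.294, 0.542, 0.5 and 0.0299.

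Exonic reads were set against each other at the ends of 45 genes with at least 3 introns. The log2 ratio of reads beside the last over those beside the first intron, with a pseudocount of 1, had a median of 0.67 in CB-RNA, 1.67 in RNAf, 0.56 in RNAe, 0.86 in RNAe + RNAf and 0.82 in mRNA. Over all genes the medians were 0.22, 1.45, -0.26, 0.24 and 0.38. RNAf had more reads at the last intron in 45 of 45 members, near the 97.0% of all genes, with values between 0.15 in AT4G13170 and 3.13 in AT5G22440. In RNAe, 32 of 45 members had more reads at the last intron, against 42.3% of all genes, and the members ranged between -3.1 in AT4G02230 and 2.95 in PGY1. In mRNA 39 of the 45 had more reads at the last intron, against 80.6% of all genes, and 6 had fewer, the lowest being AT3G16780 at -0.64.

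**Figure D4:**
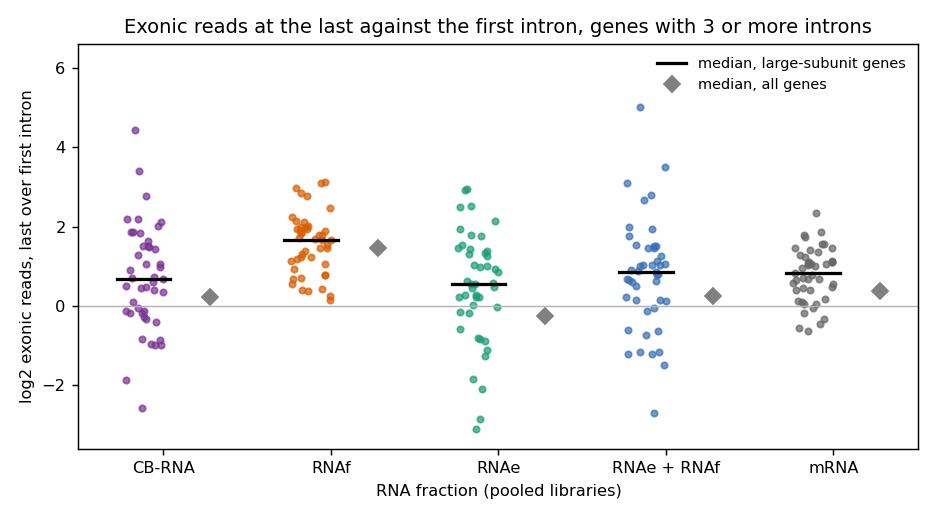
Points are 45 large-subunit genes with at least 3 introns, and the vertical axis is the log2 ratio of exonic reads beside the last over the first intron in each RNA fraction. Black lines are member medians and grey diamonds are medians of all genes, which lie at 0.56 and -0.26 in RNAe.

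Median intron length, GC content and the letters of the 5ʹSS set the members little apart, but their longer introns were longer. The upper quartile of intron length was 238 bp in members and 166 bp over all introns. Member genes had 3.47 introns on average, against 5.48 over all genes, and their introns had a median length of 104 bp against 99 bp and a median GC content of 32.6% against 32.7%. The 6 bases GTAAGT at the 5ʹ end of the intron, read on the coding strand alone, were found in 18 member introns (8.78%) and in 9.33% of all introns. On average 5.79 of the 8 bases AGGTAAGT across the 5ʹSS matched in members and 5.6 in all introns. The last 20 intron bases held 47.6% T in members and 42.9% in all introns. Across member introns, Spearman's rho between the 5ʹSS ratio and exonic reads in mRNA was -0.271 in CB-RNA, -0.33 in RNAf, -0.153 in RNAe, -0.109 in RNAe + RNAf and -0.283 in mRNA, against -0.0271, -0.0193, -0.0157, -0.0148 and -0.0386 over all introns. These are descriptions across introns, which share genes and libraries, and in mRNA the same exonic reads enter both measures.

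Large-subunit genes took their largest share of exonic reads in mRNA and the next largest in RNAf, while their share of intronic reads stayed in a narrow range. The share of exonic reads on the members was 0.217% in CB-RNA (0.215 to 0.219), 0.537% in RNAf (0.536 to 0.539), 0.292% in RNAe (0.29 to 0.295), 0.419% in RNAe + RNAf (0.415 to 0.422) and 1.46% in mRNA (1.46 to 1.47). The share of intronic reads was 0.176% in CB-RNA, 0.235% in RNAf, 0.183% in RNAe, 0.254% in RNAe + RNAf and 0.182% in mRNA. Between RNAf and mRNA the exonic share was 0.368 times and the intronic share 1.29 times as large in RNAf. Between CB-RNA and mRNA these were 0.149 and 0.967 times. Between the like-treated CB-RNA and RNAe + RNAf they were 0.518 and 0.693 times. Other ribosomal protein genes had the same order of exonic shares. In CB-RNA, RNAf, RNAe, RNAe + RNAf and mRNA, small-subunit genes had 0.246%, 0.628%, 0.339%, 0.474% and 1.79%. The other large-subunit genes had 0.121%, 0.428%, 0.156%, 0.245% and 1.05%.

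**Figure D5:**
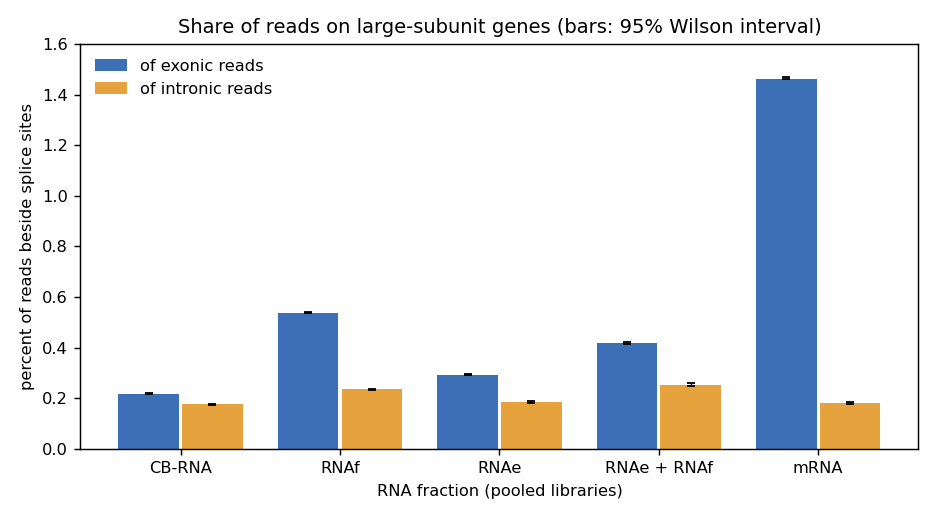
Bars give the percent of exonic (blue) and intronic (orange) reads beside splice sites that fell on large-subunit genes in each RNA fraction, from 0, with 95% Wilson intervals. The exonic share is 1.46% in mRNA and 0.217% in CB-RNA, and the intronic share lies between 0.176% and 0.254% in the 5 fractions.

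The shift was shared by the single genes. The same counts were not taken over all genes, so those below describe the members alone. The exonic share was lower in RNAf than in mRNA in 57 of 57 members, with a median log2 ratio of -1.39 between -2.44 in AT4G13170 and -0.38 in AT2G20450. It was lower in CB-RNA than in mRNA in 56 of 56, with a median of -2.86, between -5.69 in the L22 gene AT3G05560 and -0.40 in RPL3B. RPL3B, the less read L3 gene, had 2.64 exonic reads per splice-site window, scaled to 1000000 exonic reads of the group, in CB-RNA, 2.18 in RNAf, 2.91 in RNAe, 4.73 in RNAe + RNAf and 3.49 in mRNA, a nearly level series. The L19 gene emb2386 had 11.6, 30.3, 16.1, 20.2 and 110. Between RNAf and RNAe, 50 of the members had the larger share in RNAf, with a median of 0.96. The 6 with a smaller share in RNAf were AT1G08360 (-0.91), RPL5B (-0.51), RPL3B (-0.42), RPL24A (-0.33), AT2G47610 (-0.15) and AT3G62870 (-0.01), named after their values were seen. RNAe had a smaller share than RNAe + RNAf in 55 members and a larger one in 2, with a median of -0.55.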

How the data were processed

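RNA of 10-day-old Col-0 seedlings was sequenced from directional libraries of 5 groups. Per the sources used here, the authors trimmed reads with Trimmomatic 0.39, aligned them to TAIR10 with HISAT2 2.2.0, kept unique alignments, used SAMtools 1.3.1 and StringTie, and listed introns of each gene's longest transcript, with counts for genes above an FPKM minimum. The deposited tables give, for each group, counts of exonic and intronic reads beside both splice sites and their ratio. The width of the windows and the way replicates were joined are not given in the sources used here. Each table holds 1 set of values per group, so no column per replicate could be tested, no count model across replicates was possible, and all tests compare pooled libraries. No per-sample column was left unused.

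Deposited ratios were kept where an intron had 1 or more exonic reads. Fisher's exact test (two-sided) was run on every intron in which each group had 10 or more exonic reads, for 4 comparisons at 2 sites, with Benjamini-Hochberg adjustment over all introns tested. On simulated data with 200 introns changed 3-fold, it recovered 55.0% of the changed introns for RNAf against mRNA (95204 introns), 59.5% for RNAe against RNAe + RNAf (78652), 35.5% for RNAf against RNAe (86071) and 52.5% for CB-RNA against mRNA (90881). PCR reads are not independent molecules, so Wilson intervals and upper limits (3 counts for a count of 0) cover counting error only. Gene ratios sum both sites of all introns of a gene. Exonic levels are exonic reads per counted splice-site window, scaled to 1000000 exonic reads of all introns in that group.

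Member genes, lists and tests were chosen with earlier results of these data known. Introns named were those with at least 50 exonic reads in the groups compared that had the 8 highest and 5 lowest 5ʹSS ratios in RNAe, the 5 largest and 3 smallest differences of RNAf minus mRNA, and the 5 highest ratios in mRNA at each site. The rule also named the 3 families whose paralogues differed most, the 5 most and 3 least read members, members without counts and members with 1 intron. Names, places and sequences came from RefSeq (TAIR10.1), where 98.8% of all introns and 98.5% of member introns start GT and end AG. No member is among the 74 introns listed with a start after their end. Alternatives were a minimum of 50 exonic reads, an adjusted p of 0.01, a 2-fold ratio, members without near-identical genes, introns or genes common to all groups, and other limits on introns and pseudocount. Scripts ran on Python 3.11.15 with Biopython 1.88, matplotlib 3.10.9, numba 0.67.0, scipy 1.17.1, pandas 2.3.3 and numpy 2.4.6.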

Additional observations from a re-analysis of the deposited data

How the results depend on the processing

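Of 176 values under alternatives, 148 were counts of calls within a set fold of the count reported, or values within the interval of the value reported. A change of direction was not scored. One of these changed sign within its interval: the member median of last minus first intron at the 5ʹSS in CB-RNA was 0.0222 with at least 10 exonic reads at both introns, against -0.0665 (interval -0.16 to 0.0573). The other last-minus-first medians kept their sign or stayed at 0, and medians of ratios, read gradients and counts of calls against mRNA stayed within their limits. No paired analysis was possible because each table holds pooled values of its group, and no replicate was left out for the same reason. Calls between RNAe and RNAe + RNAf were few and moved with the limits: at 50 exonic reads, 1 intron was higher and 3 were lower in RNAe at the 5ʹSS. At an adjusted p of 0.01, 0 were lower at the 5ʹSS and 1 was higher at the 3ʹSS, where 2 were higher without near-identical genes. Between RNAf and RNAe, 1 intron was higher in RNAf at the 5ʹSS at an adjusted p of 0.01, and 1 at the 3ʹSS with a 2-fold ratio required.

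Without near-identical genes, summed ratios at the 5ʹSS were 0.218 in CB-RNA, 0.0419 in RNAf, 0.174 in RNAe, 0.153 in RNAe + RNAf and 0.00241 in mRNA, and at the 3ʹSS 0.273, 0.0562, 0.22, 0.2 and 0.00269. Without the most read intron, the RNAf 3ʹSS value was 0.0662. Shares of exonic reads were 0.207% in CB-RNA, 0.525% in RNAf, 0.277% in RNAe, 0.398% in RNAe + RNAf and 1.43% in mRNA from the 5ʹSS alone, and 0.219%, 0.54%, 0.296%, 0.424% and 1.47% over genes counted in all groups. The counting intervals of sums are narrow, so these small moves exceeded them. Depth limited single introns most in RNAe and RNAe + RNAf.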
